A study of Zea mays with 12 samples.

Results

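Giant cells of maize roots, the enlarged feeding cells that a root-knot nematode induces, were set against control root cells 21 days after inoculation. The comparison rests on 6 of the 12 arrays of the study, chosen by their labels: 3 biological replicates of giant cells at 21 days and 3 of control cells at 21 days. The other 6 arrays hold the same cell types at 14 days and served for the estimate of spread and for a comparison of the days. Giant cells (tissue of the A188 and B73 cross, given 1000 Meloidogyne incognita juveniles of stage 2 at 2 weeks of age) were laser-captured over an area of about 5000000 square micrometres, or about 40 to 60 cells a sample. Control cells had the same genotype, the same inoculation and the same age, and came from nematode-free stretches of infested roots, about 13000000 square micrometres or 75 to 150 cells a sample. The control is therefore tissue of an infested plant, not of an uninfested one. Its cell types are not named in the labels, which do not say which giant-cell and control arrays share a plant. They describe the arrays as biological replicates without naming plants, so p-values measure the spread between these samples only, which may be technical in part.

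Root-knot nematodes enter near the root tip, migrate to the vascular cylinder and induce a few cells there to enlarge through repeated rounds of nuclear division without complete cell division. The resulting giant cells are multinucleate, have dense cytoplasm and thick ingrown walls, and are the nematode's only source of food. DNA replication in them is known to go on for a time after induction and to give way to a phase of feeding and maintenance.

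Signals were deposited as MAS5 intensities, a measure of probe brightness on a linear scale, with every array scaled to the same trimmed mean. Log2 changes below are those of the signal plus an offset of 9.50, giant over control cells, so a positive change means higher in giant cells. A gene is said to have risen or fallen where its adjusted p from limma was under 0.05. Pearson correlations across probe sets ran from 0.917 to 0.919 between giant-cell arrays and from 0.878 to 0.934 between control arrays of 21 days, against 0.719 to 0.817 between the cell types. The arrays carry bacterial and phage hybridization controls (BioB, BioC, BioD and Cre), called added transcripts below. These were brighter on giant-cell arrays, at 13.8 against 13.0 on the log2 scale. The difference was 0.82 (exact two-sided permutation p = 0.10, the smallest that 3 against 3 arrays allow). Whether every sample received the same amount is not stated, and scaling to them does not measure RNA per cell. The log2 ratio of 3′ to 5′ signal of ubiquitin, a measure of RNA integrity, was 2.02 in giant cells and 1.33 in control cells (exact permutation p = 0.10), and that of GAPDH was 3.19 in both groups (exact permutation p = 1). For cyclophilin the ratio was 4.61 and 4.51, and for actin -2.61 and -2.74 (exact permutation p = 0.9 each). The ratios thus differed in sign between transcripts, which limits them as a measure of integrity. The signal of 18S ribosomal RNA was 38659.8 on giant-cell arrays and 20951 on control arrays, with every giant-cell array higher (exact permutation p = 0.10). The part of these differences in the results was not tested.

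At 21 days, 1163 of 12080 probe sets tested rose in giant cells (9.63%) and 1054 fell (8.73%). The falls were larger, with a median size of 1.80 log2 units against 1.15 for the rises. Changes of at least 2 log2 units were reached by 134 probe sets that rose and 478 that fell, and of at least 4 units by 6 that rose and 78 that fell. All 3 giant-cell arrays lay above all 3 control arrays for 22.7% of probe sets tested and below them for 15.5%. Together 2217 passed (18.4%), and 762 of the rises (6.31% of those tested) and 900 of the falls (7.45%) were at least 2-fold. Of 790 named genes that could be tested 75 rose (9.49%) and 119 fell (15.1%). The counts of the gene lists below are to be read beside these shares. Scaling the arrays to the added transcripts in place of the deposited scaling put the median change over all probe sets at -0.66, against 0.13 as deposited, and left 136 rises against 3542 falls. That scaling lowered giant-cell changes as a whole, so it could hardly undo a fall, and falls kept under it lend no support. Of the 119 named genes that fell as deposited, 119 also fell under it. Of the 75 that rose, 10 still rose and 63 kept a positive change. Changes below are given relative to the deposited scaling unless the added transcripts are named.

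**Figure D1:**
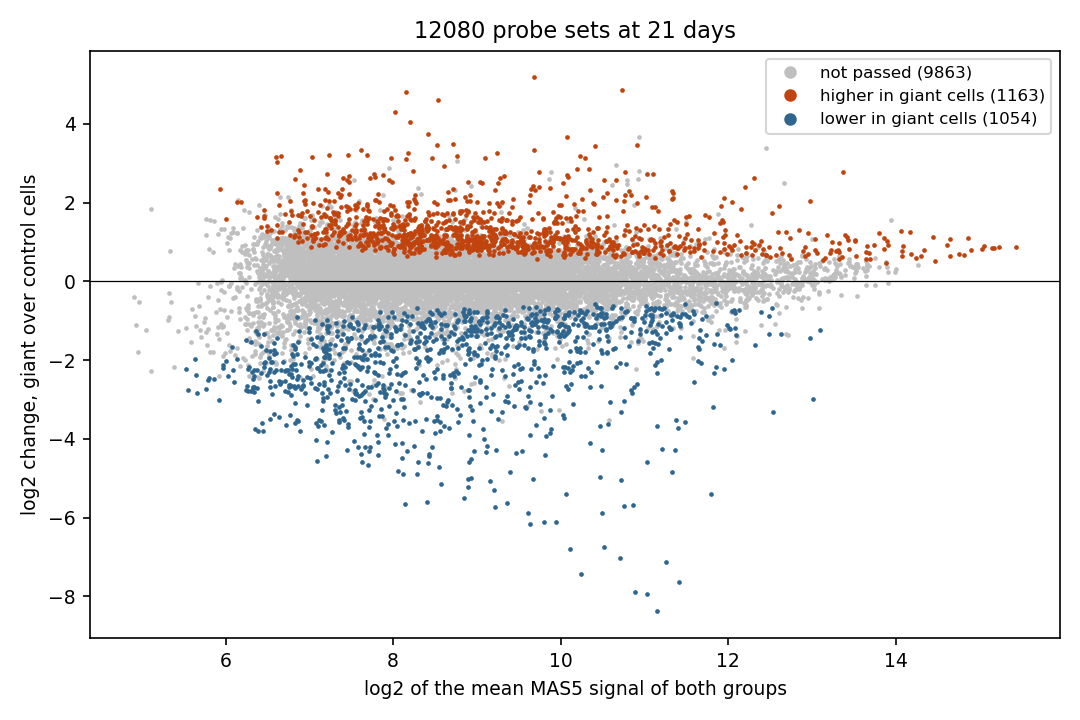
Log2 change at 21 days (giant over control cells) against the log2 mean MAS5 signal of both groups, 1 point for each of 12080 probe sets. The 1054 probe sets that fell reach further from 0 than the 1163 that rose, and 9863 did not pass the adjusted p of 0.05.

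SBE1 rose furthest among named genes (Gene ID 542238, synonym ae1). It encodes a starch branching enzyme that makes the branch points of amylopectin. Its signal was 1054, 669 and 441 in giant cells, against 33.8, 5.03 and 26.4 in control cells. It was thus 24.3-fold higher (log2 4.60 ± 0.45 SE, n = 3 arrays a group, limma adjusted p = 6.8e-05). A second probe set of the gene changed by 4.31. The proline-rich wall protein gene prcw1 had signals of 2432, 3132 and 4959 in giant cells, against 161, 279 and 571 in control cells, a log2 change of 3.46 ± 0.46 (limma adjusted p = 0.00062). gln2 (Gene ID 542400), a glutamine synthetase gene, had 2557, 907 and 1069 in giant cells, against 84.4, 138 and 169.9 in control cells (log2 3.33 ± 0.46, limma adjusted p = 0.00081). In all of these genes the lowest giant-cell array was well above the highest control array.

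Further rises by more than 2 log2 units were those of mdh6, a malate dehydrogenase gene, expA4, an alpha-expansin gene, pdc2, a pyruvate decarboxylase gene, AGP2, pht7 and zmCL2-2. mdh6 had signals of 324, 398 and 433 in giant cells, against 60.5, 67.9 and 35.3 in control cells (log2 2.65 ± 0.42, limma adjusted p = 0.0018). The 3 giant-cell arrays lay within a narrow range for expA4, at 462, 431 and 403 in giant cells, against 118, 66.8 and 38.2 in control cells (log2 2.51 ± 0.52, limma adjusted p = 0.0073). pht7, named as a phosphate transporter, had 2956, 1806 and 1706 in giant cells, against 726, 223 and 413 in control cells (log2 2.33 ± 0.53, limma adjusted p = 0.012), and its adjusted p was 0.053 without giant-cell replicate 1. The call for AGP2 was lost without any 1 of 5 of the 6 arrays (adjusted p up to 0.14), and that for zmCL2-2 without control replicate 1 or 2 or giant-cell replicate 3 (adjusted p up to 0.083). The list of largest rises closes with cc7, a cystatin gene whose product inhibits cysteine proteases (1.96 ± 0.38), hdr10, of the hypersensitive-induced-reaction family (1.95 ± 0.23), and apx, an ascorbate peroxidase gene (1.89 ± 0.21). Scaled to the added transcripts, SBE1 changed by 3.94, prcw1 by 2.66, gln2 by 2.55 and apx by 1.08 log2 units, each still past the threshold.

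**Figure D2:**
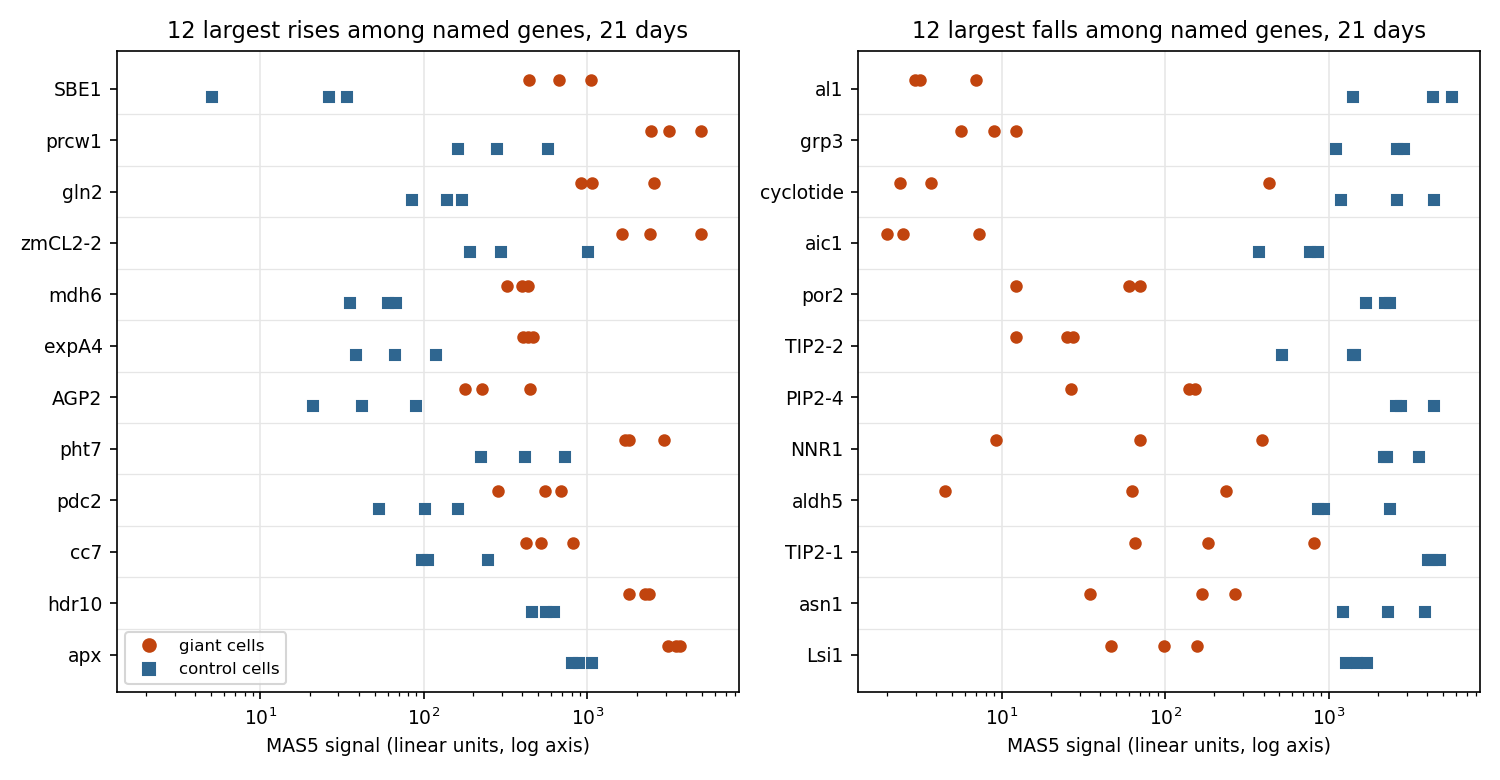
MAS5 signal (log axis) of the 12 largest rises and the 12 largest falls among named genes at 21 days, 1 symbol per array, with giant cells as circles above control cells as squares. Giant-cell and control arrays do not overlap for any gene shown, as the choice of these genes required, and several genes that fell have giant-cell signals under 10.

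The deepest fall among named genes was that of al1 (Gene ID 541660), with signals of 3.2, 3.0 and 7.0 in giant cells, against 1404, 5636 and 4330.3 in control cells (log2 -7.89 ± 1.19, limma adjusted p = 0.0014). The glycine-rich protein gene grp3 (Gene ID 542453) followed, at 5.62, 12.2 and 8.95 in giant cells, against 2601, 2897 and 1104 in control cells (log2 -6.80 ± 0.64, limma adjusted p = 5.2e-05). aic1 (synonym aux1), named for an auxin import carrier, had 7.31, 2.48 and 1.98 in giant cells, against 773, 377 and 865 in control cells (log2 -5.60 ± 0.73, limma adjusted p = 0.00055). In these genes the giant-cell signals lay at or near the offset, so the size of the fall depends on it: with an offset of 1 the change was -9.32 for al1, -7.73 for grp3 and -7.16 for aic1, and with an offset of 32 it was -6.50, -5.66 and -4.22. Of all called probe sets, 35 had a mean giant-cell signal under the offset and 0 a mean control signal under it. The cyclotide gene, which encodes a small cyclic peptide of the kind that defends plants against herbivores, had 2.40, 429 and 3.69 in giant cells, against 4399.7, 1194 and 2606 in control cells. Giant-cell replicate 2 stood far above the other two giant-cell arrays there, and the call was lost without control replicate 1 or giant-cell replicate 1 or 3 (adjusted p up to 0.066).

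Some genes of starch synthesis rose, and most genes of sucrose cleavage and sugar transport fell. Of 6 tested genes of starch synthesis 3 rose and 0 fell (median log2 change 1.52). Of 8 tested genes of the sugar list 0 rose and 6 fell (median -1.97), beside a median of 0.13 over all probe sets. The 8 include spp1 and SPP2, genes of sucrose synthesis, and SPP2 is 1 of the 6 that fell. Among named genes 9.49% rose and 15.1% fell. ss1, a starch synthase gene, had signals of 301, 293 and 144 in giant cells, against 46.2, 89.4 and 59.1 in control cells (log2 1.75 ± 0.39, limma adjusted p = 0.011), and its adjusted p was 0.051 without giant-cell replicate 1. sh2, the large subunit of ADP-glucose pyrophosphorylase, changed by 0.95 (adjusted p = 0.10), Agp2 (Gene ID 542072) by 1.29 (adjusted p = 0.12) and sbe1 (Gene ID 542315) by 0.97 (adjusted p = 0.23), none past the threshold. Agp2 and sbe1 are other genes than AGP2 (Gene ID 542737) and SBE1 (Gene ID 542238), which rose, though the symbols differ only in case. Leaving out 1 array of 21 days left between 1 and 5 of the 6 starch genes called, and 1 of them, SBE1, rose with scaling to the added transcripts, where the median was 0.77.

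Sucrose is cleaved by sucrose synthases and invertases. The sucrose synthase gene SH-1 (synonym sh1) had 1018, 971 and 1427 in giant cells, against 2354, 4761 and 4473 in control cells (-1.71 ± 0.29, limma adjusted p = 0.0024), and its other tested probe sets changed by -1.69 (limma adjusted p = 0.022) and -1.62 (limma adjusted p = 0.059). The gene ss2 (synonym sus1), another sucrose synthase gene, had 1973, 2799 and 2449.9 in giant cells, against 4555, 8072 and 6403 in control cells (-1.37 ± 0.23, limma adjusted p = 0.0023). The soluble invertase gene ivr2 had 2.74, 18.1 and 5.95 in giant cells, against 281, 175 and 115 in control cells, and the cell-wall invertase gene incw1 changed by -2.23 (limma adjusted p = 0.0029). The monosaccharide transporter gene MST1 changed by -3.49 (adjusted p = 0.011). The sucrose-phosphate phosphatase gene SPP2, whose product completes sucrose synthesis, had 5.31, 1.54 and 2.39 in giant cells, against 134, 146 and 201 in control cells (-3.74 ± 0.49, limma adjusted p = 0.00056). Its paralogue spp1 (0.35, adjusted p = 0.31) and sus2 (1.11, adjusted p = 0.094) did not pass. The 6 falls held without any 1 array of 21 days. They also passed with scaling to the added transcripts, which lowers changes as a whole and so could hardly undo them.

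Water channel genes fell or did not pass. Of 20 aquaporin genes tested 11 fell and 0 rose, beside 15.1% and 9.49% of named genes, with a median change of -2.13. The number that fell was 11 without any 1 array of 21 days. It was also 11 with scaling to the added transcripts, which lowers changes as a whole and so could hardly undo a fall. Tonoplast aquaporins move water into and out of the vacuole. Among them, por2 (Gene ID 541687, synonym TIP2-3) had signals of 12.3, 59.7 and 70.7 in giant cells, against 2224, 2358 and 1681 in control cells, 42.0-fold lower (log2 -5.39 ± 0.48, limma adjusted p = 3.2e-05). TIP2-2 had 12.3, 27.4 and 25.1 in giant cells, against 1402, 1439 and 521 in control cells (log2 -5.08 ± 0.40, limma adjusted p = 1.2e-05), TIP2-1 changed by -4.25 ± 0.63 and tip1 (synonym TIP1-1) by -2.74 ± 0.33. In TIP2-1 giant-cell replicate 3, at 814, stood above the other two, at 65.8 and 184, and the groups remained apart.

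Plasma membrane aquaporins fell as well, but not throughout. PIP2-4 had 26.5, 139.6 and 153 in giant cells, against 2779, 4413 and 2589.7 in control cells (log2 -5.05 ± 0.62, limma adjusted p = 0.00034), and PIP1-5 had 444, 384 and 588 in giant cells, against 2878, 3358 and 3333 in control cells (log2 -2.75 ± 0.28, limma adjusted p = 9.1e-05). PIP1-1, pip2-5, pip1-2 and PIP2-1 changed by -3.56, -2.68, -2.16 and -2.10, all past the threshold. Lsi1, whose rice counterpart is a silicon influx channel, had 46.5, 156 and 99.0 in giant cells, against 1487, 1713 and 1271 in control cells (-3.89 ± 0.64, limma adjusted p = 0.0022). PIP1-3 (0.97, adjusted p = 0.11), TIP4-1 (1.11, adjusted p = 0.20), pip2c (0.30) and PIP2-6 (-0.14) did not pass. At 14 days PIP2-6 had changed by -2.61 (adjusted p = 0.0031), and the difference between the days was 2.46 (limma adjusted p = 0.49, unadjusted p = 0.0039). Sequences of aquaporin paralogues are alike, and cross-hybridization between their probe sets was not tested.

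**Figure D3:**
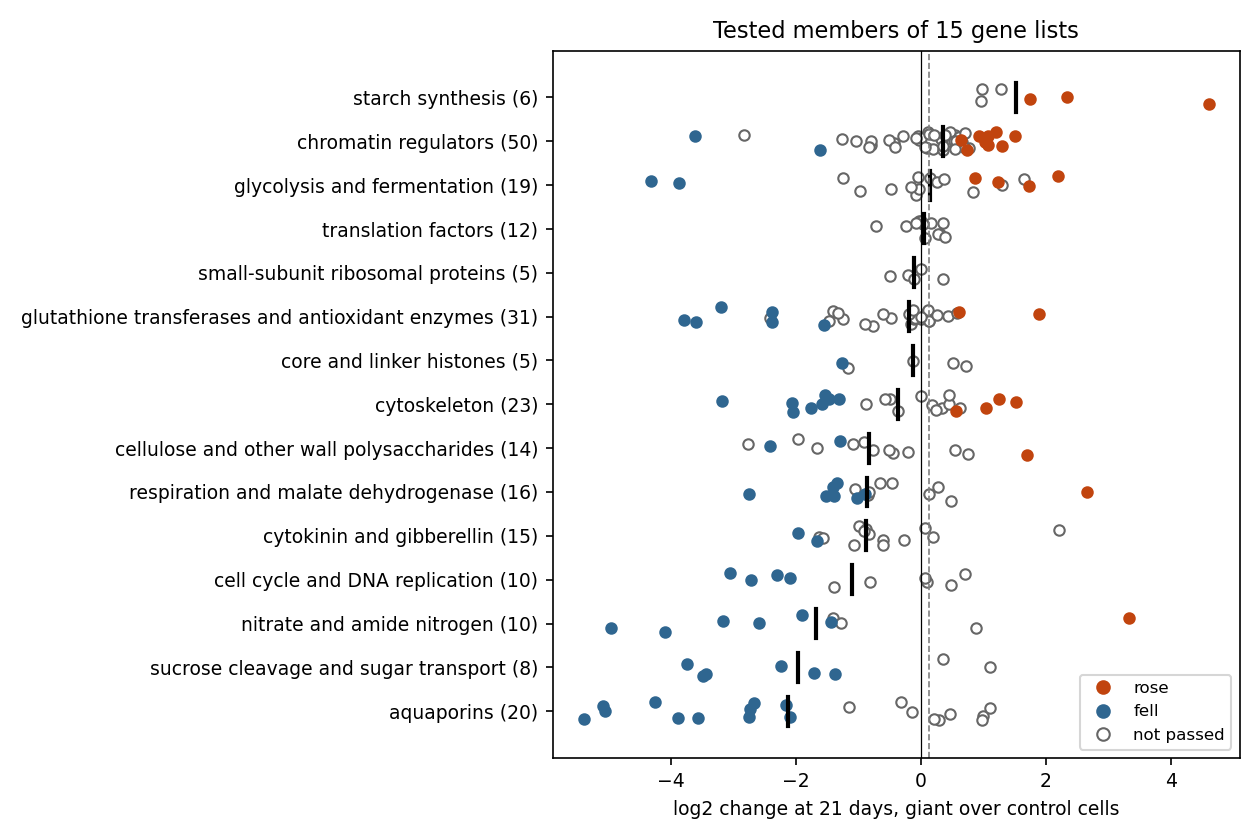
Log2 change at 21 days (giant over control cells) of each tested member of 15 gene lists, with the number tested in parentheses, filled where the adjusted p was under 0.05, with a black bar at the median of the list and a dashed line at the median of all probe sets, 0.13. Falls number 11 of 20 for aquaporins, 6 of 10 for nitrate and amide nitrogen and 6 of 8 for sucrose cleavage and sugar transport. Starch synthesis has 3 rises and 0 falls. Among named genes 9.49% rose and 15.1% fell. With scaling to the added transcripts the median of chromatin regulators was -0.46, against 0.35 here, and that of glycolysis and fermentation -0.67, against 0.15 here.

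More genes of nitrogen assimilation fell than rose. Of 10 tested genes of nitrate and amide nitrogen 6 fell and 1 rose (median -1.68), beside 15.1% and 9.49% of named genes. Without 1 array of 21 days the number that fell ran from 4 to 6. NNR1, a nitrate reductase gene that catalyses the first step of nitrate assimilation, had signals of 9.27, 389 and 70.2 in giant cells, against 2283, 3582 and 2173 in control cells (31.1-fold lower, log2 -4.96 ± 0.84, limma adjusted p = 0.0025). Giant-cell replicate 2 was the highest of its group. asn1, an asparagine synthetase gene, had 34.6, 168 and 268 in giant cells, against 1219, 2312 and 3854 in control cells (log2 -4.10 ± 0.87, limma adjusted p = 0.0085). Its other probe set changed by -2.79 and did not pass (limma adjusted p = 0.060). The nitrate transporter gene nrt2 changed by -3.16 (adjusted p = 0.037), with groups that overlap, and gdh1, a glutamate dehydrogenase gene, by -1.91 (adjusted p = 0.0035). The glutamine synthetase genes differed in direction: gln2 rose (3.33), gln1 (-2.59, adjusted p = 0.013) and GLN6 (-1.44, adjusted p = 0.0088) fell, and Gln1-4 (0.88, adjusted p = 0.094) and gln3 (-1.27, adjusted p = 0.17) did not pass. The mean signal of GLN6 was 4295 ± 597 in giant cells and 11806 ± 2683 in control cells (SD, n = 3 each).

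Of 4 tested genes of phosphate, potassium and metal transport, pht7 rose and mha4, a plasma membrane proton ATPase gene, fell (-1.33 ± 0.29, adjusted p = 0.010). pht1 changed by -1.46 (adjusted p = 0.13) and mha1 by 0.03 (adjusted p = 0.95). At 14 days pht7 had signals of 232, 58.6 and 121 in giant cells, against 161, 529 and 245 in control cells, a change of -1.15 (adjusted p = 0.12). The difference between the days, 3.48 log2 units, did not pass (limma adjusted p = 0.31, unadjusted p = 0.00048).

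Calls among wall genes went in both directions. Of 14 tested genes of cellulose and other wall polysaccharides 1 rose and 2 fell, near the shares of named genes (9.49% rose and 15.1% fell). Of 8 expansin and xyloglucan genes 1 rose and 3 fell. Of 4 genes of proline-rich, glycine-rich and other wall proteins 2 rose and 2 fell. CesA-3, a cellulose synthase gene, had 646, 521 and 599 in giant cells, against 202, 218 and 119 in control cells (1.70 ± 0.26, limma adjusted p = 0.0016). CesA-2 fell (-1.30 ± 0.42, adjusted p = 0.047), with a call lost without any 1 of 5 arrays. expA4 rose, whereas the other alpha-expansin genes expa1 (-2.24 ± 0.59, adjusted p = 0.022), expa2 (-2.53 ± 0.78, adjusted p = 0.041) and EXPA5 (-2.23 ± 0.71, adjusted p = 0.046) fell, between 0 and 1 of them without 1 array and 1 with a stricter filter on dim probe sets (the 50th percentile of each array in place of the 40th). grp1, another glycine-rich protein gene, rose by 0.69 with scaling as deposited and changed by -0.13 with scaling to the added transcripts, and its second probe set changed by 0.02 (adjusted p = 0.95). HRGP, a hydroxyproline-rich glycoprotein gene, had 65.2, 316 and 111 in giant cells, against 2100.1, 589 and 3123 in control cells (-3.47 ± 0.81, limma adjusted p = 0.013), and its change at 14 days was 0.47 (adjusted p = 0.69).

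In the list of phenylpropanoid, lignin and peroxidase genes 1 of 8 rose and 3 fell, beside 9.49% and 15.1% of named genes. BM1, the cinnamyl alcohol dehydrogenase gene of lignin synthesis, rose (1.05 ± 0.31, adjusted p = 0.034) and changed by 0.24 (adjusted p = 0.64) with scaling to the added transcripts. The peroxidase genes ap1 (-3.53 ± 0.76, adjusted p = 0.0087), PER2 (-3.30 ± 1.03, adjusted p = 0.042) and PER1 (-1.26 ± 0.26, adjusted p = 0.0082) fell. PAL1, which encodes phenylalanine ammonia-lyase, the entry enzyme of the pathway, changed by -0.10 (adjusted p = 0.88).

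Several genes of DNA replication fell at 21 days. Of 10 tested genes of the cell cycle and DNA replication 4 fell, 0 rose and 6 did not pass, whereas 15.1% of all named genes tested fell. The median was -1.11 at 21 days and 0.30 at 14 days. With the stricter filter 3 fell and the median was -0.38 at 21 days. MCM6 (Gene ID 542206), a subunit of the helicase that unwinds DNA at replication origins, had signals of 77.8, 117 and 16.2 in giant cells, against 421, 433 and 413 in control cells (6.57-fold lower, log2 -2.72 ± 0.64, limma adjusted p = 0.013). At 14 days the same probe set had 389.6, 839.7 and 189 in giant cells, against 111, 321 and 441 in control cells, with groups that overlap. The other tested probe sets of MCM6 changed by -2.60 and -2.27 at 21 days, both past the threshold.

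pcna2, a gene of the sliding clamp that holds DNA polymerase on its template, had 51.7, 252 and 26.5 in giant cells, against 794, 705 and 565 in control cells at 21 days (-3.05 ± 0.66, limma adjusted p = 0.0089). At 14 days it had 652, 261 and 397 in giant cells, against 147, 482 and 619 in control cells. pcna1 had 296, 472 and 186 in giant cells, against 1669, 1279 and 1022 in control cells at 21 days (-2.09 ± 0.40, limma adjusted p = 0.0050) and fell at 14 days too (-1.22, adjusted p = 0.040). wee1, a kinase gene that restrains entry into mitosis, had 22.7, 42.4 and 5.70 in giant cells, against 128, 152 and 128 in control cells (-2.30 ± 0.56, limma adjusted p = 0.016), and changed by -0.13 at 14 days (adjusted p = 0.88). ROA-1, whose names are those of the maize replication origin activator, related to the MCM3 helicase subunit, had 77.3, 181 and 62.1 in giant cells, against 894, 811 and 445 in control cells at 21 days (-2.72 ± 0.46, limma adjusted p = 0.0025), against 0.55 at 14 days (adjusted p = 0.40). In this gene giant-cell signals were 77.3, 181 and 62.1 at 21 days and 699, 811 and 425 at 14 days.

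MCM7 changed by -1.40 (adjusted p = 0.10), with all giant-cell arrays below the control arrays. RBR1, the retinoblastoma-related gene that restrains entry into the replication phase (0.48), orc1, of the origin recognition complex (0.70, adjusted p = 0.058), cdc2 (0.07) and the D-type cyclin gene cycD2 (-0.82) did not pass. The number that fell was between 2 and 4 without 1 array of 21 days, as wee1 was lost without control replicate 2 or giant-cell replicate 3 (adjusted p up to 0.056) and MCM6 without giant-cell replicate 3. Scaled to the added transcripts, 6 of the 10 fell.

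The linker histone gene H1 (Gene ID 542385) had 1421, 1210.4 and 1015 in giant cells, against 2729, 2509 and 3515 in control cells at 21 days (-1.26 ± 0.22, limma adjusted p = 0.0029) and 2212, 1685 and 2114 in giant cells, against 1416, 1771 and 1264 in control cells at 14 days. All 3 giant-cell arrays were lower, and all 3 control arrays higher, at 21 days than at 14 days. The other probe sets of the gene changed by -0.74 to -1.15, and that at -0.74 did not pass (limma adjusted p = 0.081). The other 4 histone genes tested did not pass, and his2b5, a histone H2B gene, changed by -1.17 at 21 days (adjusted p = 0.14) and 0.91 at 14 days. nfd101, of the chromatin assembly factors with a high-mobility-group box, had 128, 608 and 112 in giant cells, against 3369, 3039 and 1864 in control cells at 21 days (-3.62 ± 0.54, limma adjusted p = 0.0013), with giant-cell replicate 2 the highest of its group, and changed by -0.64 at 14 days (adjusted p = 0.39).

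The difference of the giant-cell change between 21 and 14 days was tested for every probe set, and 0 of 12080 passed (limma, 0.0%). At an unadjusted p under 0.05 there were 839 (6.95%), and the smallest adjusted p was 0.21. Among named genes the smallest p in the negative direction were those of H1 (-1.69, adjusted p = 0.21, unadjusted p = 0.00010), ROA-1 (-3.26, adjusted p = 0.31, unadjusted p = 0.00024) and nfd101 (-2.98, adjusted p = 0.45, unadjusted p = 0.0018). In the positive direction they were those of pht7, dbf1, a gene named for a factor that binds drought-responsive elements (1.77, adjusted p = 0.36), and PIP2-6. The differences of MCM6 (-3.35, adjusted p = 0.47) and pcna2 (-3.25, adjusted p = 0.49) did not pass either. Without giant-cell replicate 2 of 21 days, 9 probe sets passed in the negative direction, and nfd101 was the only 1 of them with a gene name (-3.73, adjusted p = 0.020).

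**Figure D4:**
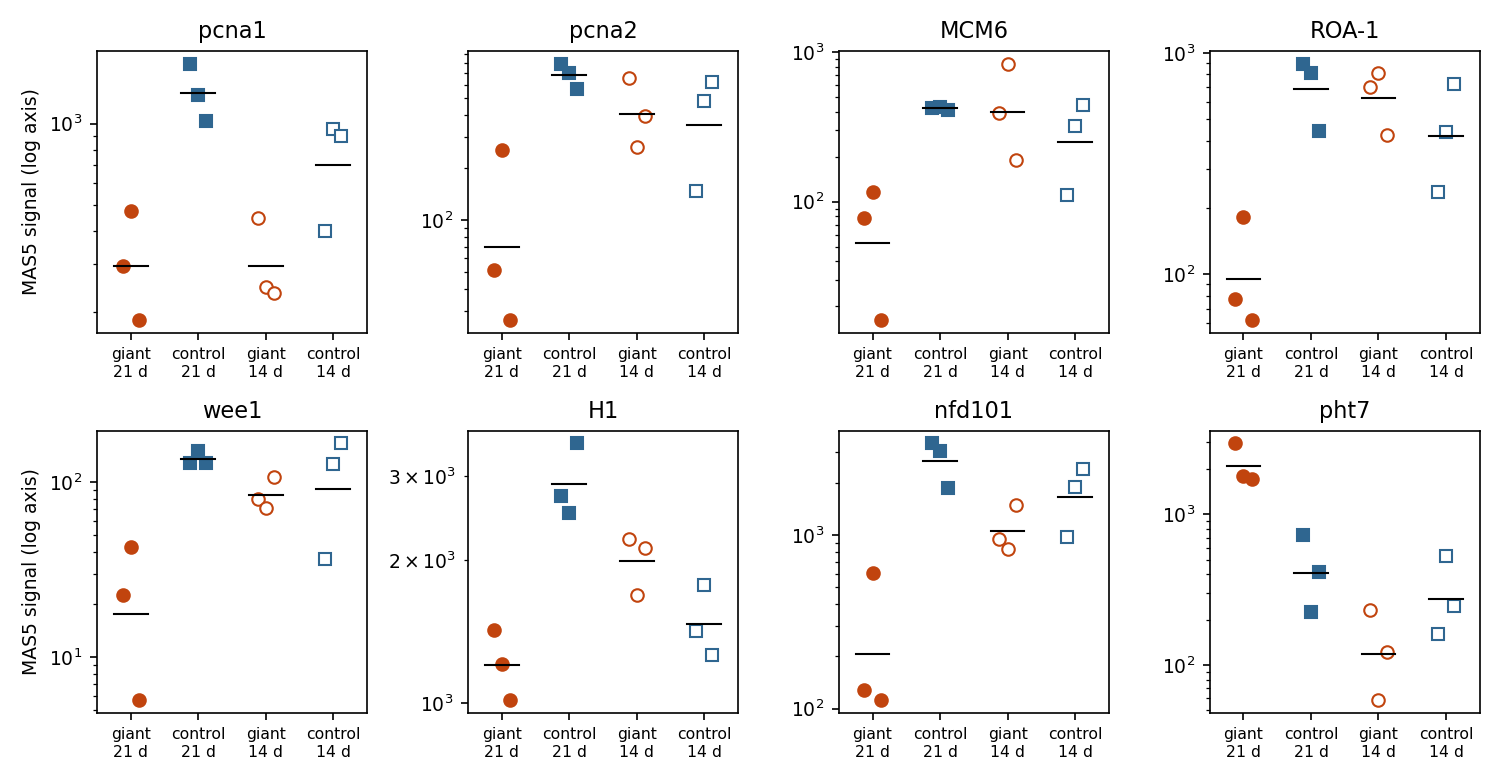
MAS5 signal (log axis) of 8 genes on each array, with giant cells as circles and control cells as squares, filled at 21 days and open at 14 days, and a bar at the mean of the log values. Giant-cell arrays of 21 days lie below the control arrays of that day for pcna1, pcna2, MCM6, ROA-1, wee1, H1 and nfd101 and above them for pht7. The difference between the days did not pass for any of the 8 (adjusted p of at least 0.21).

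Most other chromatin genes did not pass. Of 50 tested chromatin regulators 9 rose and 2 fell, beside 9.63% and 8.73% of all probe sets, with a median of 0.35. The rises ranged from 0.65 for hmg2 up to the change of hac108, a histone acetyltransferase gene. hac108 had 634, 781 and 928 in giant cells, against 196, 282 and 342 in control cells (2.83-fold higher, limma adjusted p = 0.0048). The methyl-binding protein gene mbd101 (1.30, adjusted p = 0.0085) and the histone deacetylase gene hda101 (1.07, adjusted p = 0.026) were among them. met5, a chromomethylase gene, fell (-1.62 ± 0.35, adjusted p = 0.0097), and its other probe set changed by -0.99 (adjusted p = 0.21). The number that rose was 3 to 7 without 1 array of 21 days. Under the added-transcript scaling there were 0 rises and 12 falls, and the median was -0.46.

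Cytoskeletal genes changed in both directions. Of 23 tested, 4 rose and 8 fell (median -0.37), beside 9.49% and 15.1% of named genes. Those that fell numbered 3 to 8 without 1 array. The profilin genes PRO4, with 9407, 8923 and 9689 in giant cells, against 4286, 3562 and 3889.8 in control cells (1.26 ± 0.17, limma adjusted p = 0.00077), and DBB11 (synonym PRO5), with 14548, 13632 and 16325 in giant cells, against 7549, 6472 and 7524 in control cells (1.05 ± 0.17, limma adjusted p = 0.0022), rose. Profilins bind actin monomers. The beta-tubulin genes TUBB2 (1.53, adjusted p = 0.016) and tub7 (0.56, adjusted p = 0.036) also rose, whereas tub3, tub4 and tub5 changed by -1.47, -1.77 and -1.31 and fell. The alpha-tubulin gene tua6 had 2096, 1877 and 1415 in giant cells, against 7039, 5507 and 3904 in control cells (-1.58 ± 0.26, limma adjusted p = 0.0022), and tua4 changed by 0.25 (adjusted p = 0.35). The kinesin genes kin11 (-3.18 ± 0.43, adjusted p = 0.00064), KIN13 (-2.06), kin4 (-2.05) and KIN6 (-1.54) fell, and KIN1, KIN9 and kin15 did not pass. With scaling to the added transcripts 0 of the 23 rose. With quantile normalization 3 rose, and with centring on the median 3 rose.

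Calls among genes of energy metabolism went in both directions. Of 19 tested genes of glycolysis and fermentation 4 rose and 2 fell, beside 9.49% and 15.1% of named genes. Their median of 0.15 was near the 0.13 of all probe sets. The rises were those of pdc2 (2.20 ± 0.48, adjusted p = 0.0098), the alcohol dehydrogenase gene adh1 (1.73, adjusted p = 0.032), and the glyceraldehyde-phosphate dehydrogenase genes gpn1 (1.23, adjusted p = 0.015) and GAPC1 (0.86, adjusted p = 0.031). pdc2 had signals of 689, 283 and 552 in giant cells, against 52.8, 162 and 102 in control cells, and its other tested probe sets changed by 1.92 and 3.11. The aldehyde dehydrogenase genes aldh5 (-4.32 ± 0.92, adjusted p = 0.0085) and rf2c (-3.88 ± 0.47, adjusted p = 0.00029) fell. The glycolytic genes ald1 (-0.08), eno1 (0.36) and eno2 (-0.03) did not pass. Leaving out 1 array of 21 days left 1 to 4 rises and a median from -0.07, without control replicate 1, to 0.26. The median was 0.06 with the stricter filter. With scaling to the added transcripts pdc2 alone rose, 9 genes fell and the median was -0.67.

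Of 16 tested genes of respiration and malate dehydrogenase 1, mdh6, rose and 7 fell (median -0.87), beside 9.49% and 15.1% of named genes. The number that fell ran from 4 to 8 without 1 array of 21 days. The alternative oxidase gene aox2, of the pathway that bypasses the later complexes of the respiratory chain, had 39.0, 50.8 and 83.1 in giant cells, against 209, 1097 and 333 in control cells (-2.75 ± 0.53, limma adjusted p = 0.0049). The adenine nucleotide carrier genes ANT1 (-1.52, adjusted p = 0.0034) and ANT2 (-0.90, adjusted p = 0.033) fell, as did the mitochondrial porin genes vdac1b (-1.39) and vdac2 (-1.41) and the pyruvate dehydrogenase gene PDHE1-B (-1.35). ATP2, of the mitochondrial ATP synthase, changed by -0.46 (adjusted p = 0.069).

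Hormone genes gave few calls. Of 15 tested cytokinin and gibberellin genes 0 rose and 2 fell, and for 8 of them every giant-cell array was below every control array, beside 15.1% of named genes that fell and 15.5% of all probe sets with all giant-cell arrays lower. From 1 to 3 fell without 1 array of 21 days. HK1, a cytokinin receptor gene, fell (-1.66 ± 0.32, adjusted p = 0.0048), as did ciszog1, whose product attaches glucose to cis-zeatin (-1.97 ± 0.48, adjusted p = 0.015). The response regulator genes crr2 (-0.91, adjusted p = 0.060), RR8 (-0.88, adjusted p = 0.096) and RR9 (-0.82, adjusted p = 0.059) did not pass. Of 3 tested auxin genes aic1 fell, and abp1 (0.54) and abp4 (0.04) did not pass. Of 7 tested ethylene and abscisic acid genes 0 rose and 0 fell (limma), with acco20, an ACC oxidase gene of ethylene synthesis, at 1.32 (unadjusted p = 0.021). In the lipoxygenase and jasmonate list 2 of 9 fell, lox1 (-1.60, adjusted p = 0.022) and opr5 (-1.97, adjusted p = 0.0056). A second probe set of opr8 rose by 0.94 (adjusted p = 0.016), whereas the brighter one changed by 0.82 (adjusted p = 0.067).

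Among 4 tested pathogenesis-related and defence genes 0 rose and 1 fell, and among 3 benzoxazinoid genes 0 rose and 1 fell. Among named genes 9.49% rose and 15.1% fell. The chitinase gene chn1 had 3744, 3493 and 2977 in giant cells, against 106, 115 and 1346 in control cells (3.66 ± 1.69, limma adjusted p = 0.14), so the groups did not overlap but control replicate 3 stood far above the other control arrays and the test was not passed. glu1, a beta-glucosidase gene that releases benzoxazinoid toxins from their glucosides, fell (-3.32 ± 0.65, adjusted p = 0.0057). Among 31 tested genes of glutathione transferases and antioxidant enzymes 2 rose, 6 fell and 23 did not pass, beside 9.49% and 15.1% of named genes. gst2 had 408, 993 and 734 in giant cells, against 5004, 9355 and 5137 in control cells (-3.20 ± 0.39, limma adjusted p = 0.00037), and gst12, gst23, gst42, gst18 and gst31 changed by -3.79, -3.60, -2.39, -2.38 and -1.56. apx had 3480.1, 3124 and 3675 in giant cells, against 1060.4, 889 and 806 in control cells, and trxh1, a thioredoxin gene, rose by 0.61 (adjusted p = 0.041). The catalase genes cat1 (-0.12) and CAT3 (-0.00) and the superoxide dismutase genes Sod4A (-0.16), sod2 (0.01) and sod3 (0.26) did not pass.

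Among 12 tested cysteine proteases and their inhibitors the cystatin genes cc7 and cc3 (1.13, adjusted p = 0.031) rose and the protease gene ccp2 fell (-1.73, adjusted p = 0.011). The counts in this paragraph stand beside 9.49% of named genes that rose and 15.1% that fell. cc7 had 422, 816 and 517 in giant cells, against 96.7, 107 and 247 in control cells, and at 14 days its change was 0.34 (adjusted p = 0.52). Of 6 tested ROP GTPase and NADPH oxidase genes rbohB, an NADPH oxidase gene, rose (1.04 ± 0.25, adjusted p = 0.014) and rop6 fell (-2.76 ± 0.44, adjusted p = 0.0018). Scaled to the added transcripts, rbohB changed by 0.23 (adjusted p = 0.62). Of 13 heat shock and chaperone genes only the calreticulin gene crt2 passed (-0.78 ± 0.22, adjusted p = 0.029). Of 11 protein disulfide isomerase genes pdi4 rose (0.96) and pdi6 (-0.70) and pdi8 (-1.40) fell. Without 1 array of 21 days 0 to 1 of the 11 rose and 0 to 1 fell, and the other tested probe sets of pdi4 changed by 0.77 and 0.60, neither past the threshold.

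Translation genes had changes close to the median of all probe sets. Of 12 tested translation factors 0 passed (limma, median 0.05), and of 5 small-subunit ribosomal protein genes 0 passed (median -0.11). Of 6 large-subunit genes rpl30 fell (-1.16 ± 0.27, adjusted p = 0.012), a call lost without giant-cell replicate 3. Under the added-transcript scaling 3 translation factors, 3 small-subunit genes and 3 large-subunit genes fell.

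Genes listed as markers of other tissues gave few calls at 21 days. In bulk samples fewer cells of a type and less RNA per cell cannot be told apart. Of 5 xylem and secondary-wall markers 1 fell, bk2 (-2.42 ± 0.68, adjusted p = 0.029), and the secondary-wall cellulose synthase genes cesa10, CesA12 and cesa11 changed by -2.76, -1.97 and -1.67 without passing. The median of the list was -1.97, and for 3 of the 5 every giant-cell array lay below every control array. Without 1 array of 21 days 0 to 2 fell. At 14 days 4 of the 5 fell (median -3.05). The summed signal of these 5 genes was 342 to 768 on giant-cell arrays and 828 to 3136 on control arrays. Of 20 root hair and epidermis genes 9 were tested and 1 fell, rop6, with a summed signal of 3850.4 to 4338 on giant-cell arrays and 4597 to 6208 on control arrays. The list for root meristem and cap held 7 homeobox genes by name (kn1, rs2, lg3, lg4b, knox7, ns1 and ns2). It held no root cap gene, and whether its members mark the root meristem was not tested. Of these 7 genes 3 were tested and 0 passed (limma). The summed signal of the list was 426 to 891 on giant-cell arrays and 304 to 431 on control arrays. The homeobox genes rs2 and lg3 changed by 1.34 (adjusted p = 0.060) and 1.67 (adjusted p = 0.094), with 70.8, 116 and 93.7 in giant cells, against 37.1, 44.7 and 16.2 in control cells for rs2. Of 12 genes of photosynthetic tissue 1 was tested and 0 passed, and the 1 phloem gene was too dim to be tested. No gene was listed at 0, and no marker of endodermis, cortex or lateral root primordia was matched. Which cell types the control samples held is not settled by these markers, and the part of tissue makeup in the results was not tested.

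Most probe sets have no gene name in the annotation used. The largest rise among these had signals of 2344, 1699 and 792 in giant cells, against 48.6, 31.7 and 18.8 in control cells (log2 5.18 ± 0.48, limma adjusted p = 4.6e-05). The deepest fall gave signals of 2.67, 8.12 and 0.917 in giant cells, against 6378, 4308 and 2959 in control cells (log2 -8.38 ± 0.41, limma adjusted p = 3.5e-07). Both changed the same way at 14 days, by 2.26 and -8.03.

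The changes of the 2 days, which share no array, can be set side by side. At 14 days 1872 probe sets rose (15.5%) and 1452 fell (12%). Of the 1163 that rose at 21 days 739 also rose at 14 days, 63.5% of the 21-day list and 39.5% of the 14-day list. Of the 1054 that fell at 21 days 758 also fell at 14 days, 71.9% of the 21-day list and 52.2% of the 14-day list. Across the 12080 probe sets, which are not independent replicates, the log2 changes of the days had a Pearson correlation of 0.81. SBE1 (4.60 at 21 days and 4.59 at 14 days), prcw1 (3.46 and 3.64) and hdr10 (1.95 and 1.93) changed alike on both days. mdh6 (2.65 and 1.00), expA4 (2.51 and 1.15) and pdc2 (2.20 and 1.04) passed at 21 days and not at 14 days, and their differences between the days did not pass (limma adjusted p of 0.63, 0.75 and 0.79).

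The calls depended on single arrays. With 1 array of 21 days left out, between 488 and 1267 probe sets rose and between 550 and 953 fell. The counts were 488 and 550 without giant-cell replicate 1, 573 and 682 without giant-cell replicate 3, 518 and 557 without control replicate 1, and 583 and 631 without control replicate 2. Of the 1163 rises 369 held without any 1 array, and of the 1054 falls 410. Among named genes 26 of 75 rises and 61 of 119 falls did so. Giant-cell replicate 2 was the array nearest to the control group for 52.0% of the rises and 51.6% of the falls, and control replicate 3 the nearest to the giant-cell group for 55.3% and 46.5%.

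**Figure D5:**
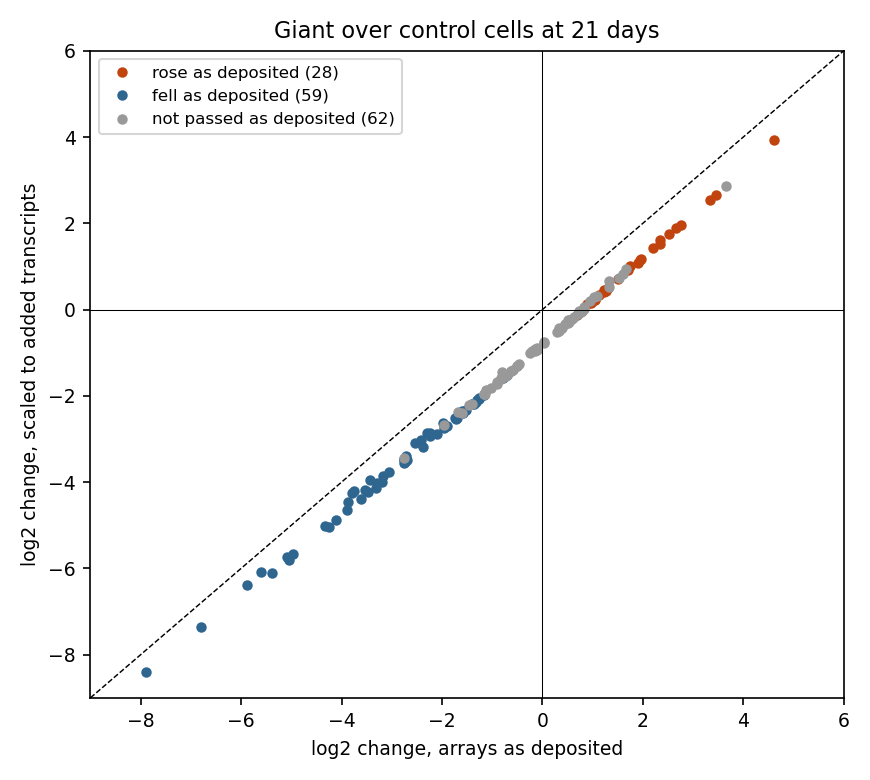
Log2 change at 21 days (giant over control cells) of 149 named genes with the arrays scaled to the added transcripts, against the change with the arrays as deposited, with a dashed line of equality. The points lie below that line, so the 59 genes that fell lie lower still, and those of the 28 genes that rose with the smaller changes come close to 0.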

How the data were processed

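Gene expression was measured on 12 Affymetrix maize arrays, 1 per laser-captured sample, of which 6 are from 21 days. Per the labels' protocols, RNA was isolated with the PicoPure kit and amplified by a NuGEN WT-Ovation Pico kit. Per the submitters' processing notes, the authors computed intensity values as MAS5 signals with Affymetrix Expression Console. Each array's trimmed mean was 500.1 or 500.2, so the authors' deposited intensities share 1 scale, and no further normalization was applied. The sources used here give no software version or scan date, and detection calls were not used.

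Of 17734 probe sets 113 are controls, and 5541 of the other 17621 were dropped as too dim (fewer than 3 arrays with a signal over that array's 40th percentile). The offset of 9.50 added before log2 is the 10th percentile of all signals. It shrinks the folds of dim genes. The number of arrays limits the precision. The 12080 left were fitted with a mean per group over all 12 arrays (limma 3.58.1 in R 4.3.3, lmFit and eBayes with a variance trend, 8 residual degrees of freedom before moderation). Tests were two-sided, with Benjamini-Hochberg adjustment over all 12080, and errors beside log2 changes are standard errors. The fit was tested on simulated data. No 2 arrays held identical values.

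The platform annotation gives 1 gene each for 1452 probe sets, 1108 genes in all, and 1060 of them were matched in the RefSeq table of genes for assembly Zm-B73-REFERENCE-NAM-5.0, used for names alone. Where a gene had several probe sets, the brightest on average (log2) was used for it. Probe sets whose names end in _x_at, _s_at or _a_at may bind more than 1 transcript. The rule for named genes took the 12 largest rises and falls at 21 days among genes past the threshold with groups that do not overlap, the 3 smallest p each way for the difference between days, and up to 4 members with the smallest p from each gene list. Other genes named are list members chosen after their values were seen, as was MCM7. The members and the 41 lists were chosen with earlier results of these data known. Of the genes matched to lists by symbol, 70 were dropped since their names belong to another kind of gene.

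Deviations from the group means correlated at 0.08, -0.03 and 0.16 between same-numbered giant-cell and control arrays of 21 days. Between arrays of different number the correlations ran from -0.15 to 0.08. So few values cannot decide whether replicate numbers pair samples, and the main fit did not pair them. Alternatives were another scaling between arrays, offset, filter, spread estimate, a replicate block, the 21-day arrays alone and each array left out.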

Additional observations from a re-analysis of the deposited data

Results flagged for a closer look

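Among the genes named, mtl2 (a metallothionein gene by its symbol) had arrays on opposite sides on the 2 days. At 21 days its signals were 209, 189.7 and 185 in giant cells, against 157, 94.9 and 95.8 in control cells, so every giant-cell array was higher. At 14 days they were 111, 119 and 120.4 in giant cells, against 239.7, 122 and 156 in control cells, so every giant-cell array was lower. The change was 0.74 at 21 days (limma adjusted p = 0.12) and -0.48 at 14 days (limma adjusted p = 0.27), neither past the threshold. The difference between the days was 1.22 log2 units and did not pass (limma adjusted p = 0.63, unadjusted p = 0.017). Its probe set is of the kind that may bind more than 1 transcript. Such opposite sides without overlap occurred for 32 of the 12080 probe sets tested, 3 of them standing for named genes. No outlier test was made, since each group holds 3 arrays.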

How the results depend on the processing

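The counts at 21 days, 1163 rises and 1054 falls, moved by less than 1.5 times with quantile or median centring, other offsets, other filters, no variance trend, a fit of the 21-day arrays alone, or 1 array of 14 days left out. Scaled to the added transcripts they were 136 and 3542, a share of rises among calls of 3.70% against 52.5%, and the cause was not tested. With 1 array left out, rises ran from 488 to 1315 and falls from 550 to 1150, and fewer arrays were then in the fit. Whether replicate numbers pair the samples is not given in the labels. The fit with the replicate number as a block called 951 rises and 959 falls, 1732 of them calls without the block, and 170 named genes against 194. No alternative but 1 gave a call for the difference between days: without giant-cell replicate 2 of 21 days 9 probe sets fell, and otherwise the count was 0, so leaving out 1 array gave from 0 to 9. The brightness difference of the added transcripts was 0.81 without Cre and 0.63 to 0.96 without 1 array, against 0.82. Among the genes named, 3022 recomputed values kept direction and side of the threshold, 176 no longer passed and 64 newly passed. The other 3 changed sign: sat3 to -0.024 scaled to the added transcripts, and grp1 to -0.11 under quantile normalization and -0.13 scaled to the added transcripts, against 0.78 and 0.69 as deposited. Detection calls were not used, so signals near or under the offset carry no order.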

Other observations

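Of 7 lipid genes tested at 21 days, 2 fell and 0 rose (median -0.90), beside 15.1% and 9.49% of named genes. The falls were those of the fatty acid desaturase gene FAD8 (-2.69 ± 0.67, limma adjusted p = 0.018) and fae1, named for a fatty acid elongase (-1.73 ± 0.43, adjusted p = 0.016). Without 1 array of 21 days the number that fell ran from 0 to 3. Of 9 tested genes of amino acid synthesis the aspartate kinase gene AK1 (0.88 ± 0.28, adjusted p = 0.047) and the serine acetyltransferase gene sat3 (0.78 ± 0.23, adjusted p = 0.033) rose, and 0 to 2 did so without 1 array. With scaling to the added transcripts both missed the threshold, at 0.13 and -0.02. Of 6 tested genes of the list with GRF or GIF symbols GRF4 rose (0.97 ± 0.29, adjusted p = 0.035), a call lost without any 1 of 5 of the 6 arrays, and the median was 0.80. The GRF symbol is shared by growth-regulating factors and by 14-3-3 proteins, and was not resolved here. Of 4 tested LEA and metallothionein genes and the 1 tested ubiquitin and proteasome gene, 0 passed (limma), with medians of 0.79 and 0.76. Another probe set of that last gene, ubc7, rose by 0.95 (limma adjusted p = 0.031).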
